A study of Mus musculus with 6 samples.

Results

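Transcripts of 9 adhesion and homing molecules of myeloma cells were followed in a mouse myeloma line, DP42; multiple myeloma is the cancer of plasma cells. The set was fixed by gene symbol and holds Sdc1, Itgb1, Itga4, Itgb7, Itgal, Itgb2, Cd44, Icam1 and Ccr7. All 9 were measured, among 22180 genes, each through the brightest probe set that the platform annotation gives to that gene alone. The line was grown for 24 h by itself, beside mouse B cells, or beside mouse neutrophils (IMC in the labels, which do not spell it out, and myeloid cells in a description of those samples), and 2 Affymetrix arrays were made of total RNA for each of the 3 groups. Co-cultured cells were separated by flow cytometry before lysis, and the cells grown alone had no partner. The labels give no treatment, genetic change or strain, and the co-cultures have DP42 as their cell type although their titles name the partner. Whether the arrays of a group stem from different cultures is not said, and the p-values therefore describe the spread of these arrays alone, possibly a technical one.

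As background, myeloma cells lodge in bone marrow by holding on to stroma and matrix and by following chemokines. Integrins are pairs of an alpha and a beta chain: Itga4 with Itgb1 forms VLA-4, which binds VCAM-1 and fibronectin, Itga4 with Itgb7 forms the receptor of MAdCAM-1, and Itgal with Itgb2 forms LFA-1, whose ligand is ICAM-1. Sdc1, or CD138, is the heparan sulfate proteoglycan that marks plasma cells, Cd44 is the receptor of hyaluronan, and Ccr7 guides lymphocytes toward the chemokines CCL19 and CCL21.

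No transcript of the 9 passed the test between the cultures, and the largest difference was 1.26-fold, in Itgb1. In limma's test over all genes 0 of 9 passed an adjusted p of 0.05 for neutrophil co-culture against B-cell co-culture, where 0.0496% of all genes passed in either direction. Against culture alone 0 of 9 passed with neutrophils, where 1.49% of all genes passed, and 0 of 9 passed with B cells, where 0% of genes did. At an unadjusted p under 0.05 stood 2 of 9 for neutrophils against B cells, Itgb1 and Icam1, beside 20.1% of all genes. Both were higher with neutrophils, as were 8.10% of all genes and 14.4% of genes at or above the median level. At the same unadjusted p stood 0 of 9 for neutrophils against alone, beside 17.7% of genes, and 0 of 9 for B cells against alone, beside 3.92%. Each 95% interval holds for a single gene in this fit and rests on the spread of these arrays. Across the 9 genes the intervals reached at most a 1.52-fold increase and a 1.27-fold decrease with neutrophils relative to B cells. Relative to culture alone they reached at most 1.37-fold up and 1.12-fold down with neutrophils, and 1.30-fold up and 1.37-fold down with B cells. Some alternative fits, in the closing section, gave differences beyond these limits.

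Values are RMA signals on the log2 scale, and each difference below is the first group minus the second. In each comparison, neutrophils and B cells stand for the co-cultures with them, so above B cells means above the B-cell co-culture. The median gene lay at 7.30 and the lower quartile at 6.29. Above that median lay 7 of the 9 genes, called brighter here, while Itgb7 and Itgal lay below it; whether such dim signals exceed background cannot be read from these values. Brightness matters for the reading, because genes at or above the median had a median difference of 0.13 for neutrophils against B cells and 0.11 against culture alone, beside 0.01 and 0.02 for all genes. Levels of different genes are not compared, since probe sets differ in how strongly they respond.

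**Figure D1:**
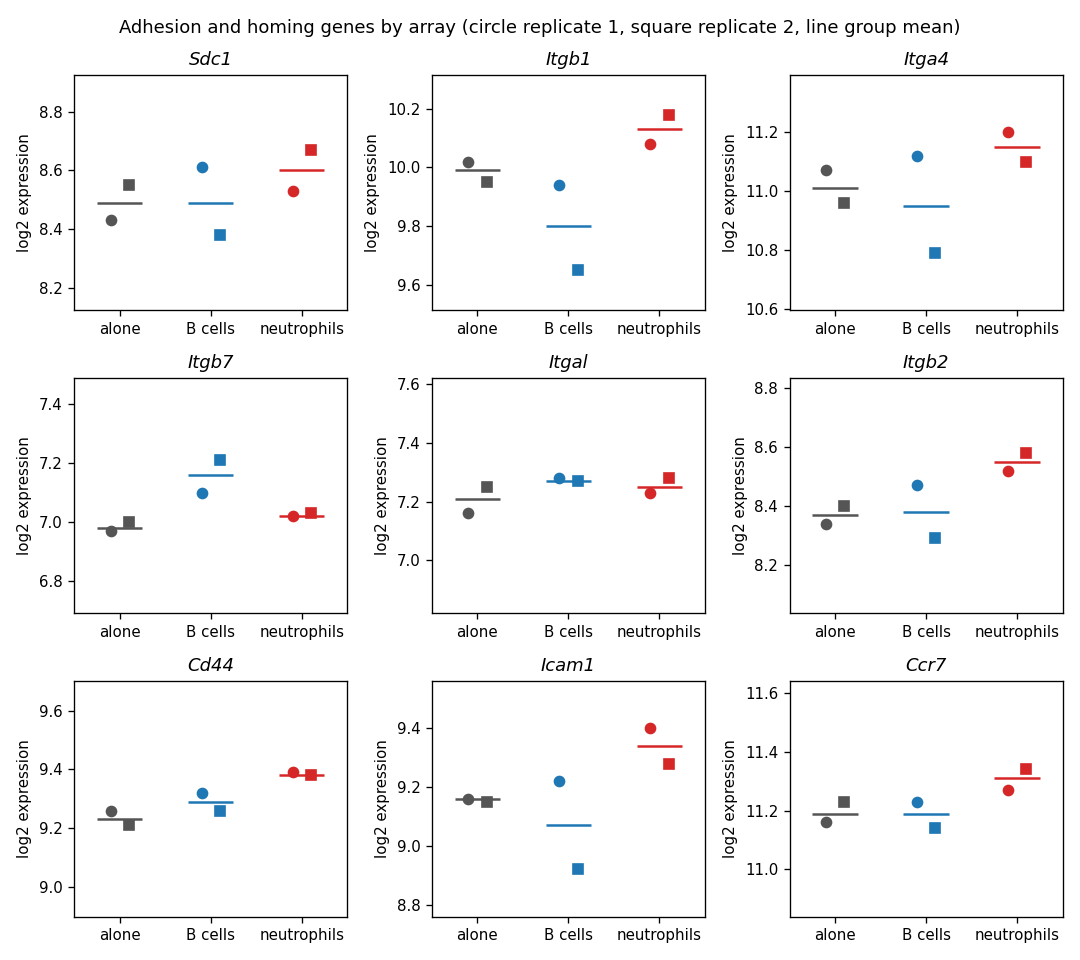
Log2 expression of the 9 genes on each array (circles replicate 1, squares replicate 2, lines group means; every panel spans 0.8 log2 units). The B-cell arrays are the farthest apart for Itgb1, Itga4 and Icam1, and both neutrophil arrays lie above the other 4 for Itgb1, Itgb2, Cd44, Icam1 and Ccr7, though not for Sdc1, Itga4, Itgb7 or Itgal.

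Itgb1, the beta chain shared by VLA-4 and other matrix receptors, read 10.02 and 9.95 in cells grown alone, 9.94 and 9.65 beside B cells, and 10.08 and 10.18 with neutrophils. Both neutrophil arrays were above the other 4, and both B-cell arrays were below the alone arrays. Its difference for neutrophils against B cells was the largest of the 9 genes, 0.33 ± 0.12 (SE), or 1.26-fold (95% interval 0.07 to 0.60, limma adjusted p = 0.202). That difference was above those of 95.4% of the brighter genes. Against culture alone it was 0.15 ± 0.12 with neutrophils (adjusted p = 0.506) and -0.19 ± 0.12 with B cells (adjusted p = 1).

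Itga4, the alpha chain of VLA-4, stood at 11.07 and 10.96 alone, 11.12 and 10.79 beside B cells, and 11.20 and 11.10 with neutrophils. The first B-cell array was above the second neutrophil array, so the co-cultures overlapped, and the second B-cell array was the lowest of the 6. The difference was 0.20 ± 0.13 for neutrophils against B cells (95% interval -0.09 to 0.48, limma adjusted p = 0.356) and 0.14 ± 0.13 for neutrophils against alone (adjusted p = 0.558). A further probe set that the annotation shares between Cerkl and Itga4 was not used, and its values lay between 7.56 and 7.66 on the 6 arrays.

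Itgb7, the other beta chain that takes up Itga4, was ordered differently. It stood at 6.97 and 7.0 alone, 7.10 and 7.21 beside B cells, and 7.02 and 7.03 with neutrophils, so that both B-cell arrays were the highest. The difference was -0.13 ± 0.09 for neutrophils against B cells (limma adjusted p = 0.399) and 0.17 ± 0.09 for B cells against alone (adjusted p = 1), neither of which passed.

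LFA-1 is made of Itgal and Itgb2, and Itgb2 also pairs with Itgam. Itgal moved least of the 9 over the arrays, with a range of 0.12: it stood at 7.16 and 7.25 alone, 7.28 and 7.27 beside B cells, and 7.23 and 7.28 with neutrophils. Its difference for neutrophils against B cells was -0.02 ± 0.09 (95% interval -0.23 to 0.19, limma adjusted p = 0.897). Itgb2 stood at 8.34 and 8.40 alone, 8.47 and 8.29 beside B cells, and 8.52 and 8.58 with neutrophils, and both neutrophil arrays were above the other 4. Its difference was 0.17 ± 0.10 against B cells (limma adjusted p = 0.333) and 0.18 ± 0.10 against culture alone (adjusted p = 0.368). Itgam, the alpha chain of Mac-1 on myeloid cells, was already bright in cells grown alone, at 10.88 and 10.81, and stood at 10.75 and 10.76 beside B cells, and 10.85 and 10.89 with neutrophils. Its difference for neutrophils against alone was 0.03 ± 0.09 (limma adjusted p = 0.887).

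Icam1, the ligand of LFA-1 and Mac-1, stood at 9.16 and 9.15 alone, 9.22 and 8.92 beside B cells, and 9.40 and 9.28 with neutrophils. Both neutrophil arrays were the highest, and the 2 B-cell arrays lay on either side of the alone arrays. The difference was 0.27 ± 0.12, or 1.21-fold, for neutrophils against B cells (95% interval 0.00 to 0.54, limma adjusted p = 0.246), above that of 88.7% of the brighter genes. For neutrophils against alone it was 0.18 ± 0.12 (adjusted p = 0.426).

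The 250 bases before the transcript start of Itgb1, Itga4 and Icam1 are shown because these genes had the widest ranges over the 6 arrays, 0.53, 0.42 and 0.48, with the second B-cell array the lowest in each. They are RefSeq promoter sequences of GRCm38.p6, in which 6 of the 9 genes were matched, and lie at chr8:128685404-128685653, chr2:79255176-79255425 and chr9:21015690-21015939, all on the plus strand. Capitals mark matches, on either strand, of the GC box GGGCGG, of the STAT site TTCNNNGAA and of GGANNTTCC, a form of the NF-kB site.
Itgb1: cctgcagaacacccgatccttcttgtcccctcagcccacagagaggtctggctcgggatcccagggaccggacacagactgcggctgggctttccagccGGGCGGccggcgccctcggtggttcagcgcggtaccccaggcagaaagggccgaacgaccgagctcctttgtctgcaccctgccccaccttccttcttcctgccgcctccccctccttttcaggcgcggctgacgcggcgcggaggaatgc
Itga4: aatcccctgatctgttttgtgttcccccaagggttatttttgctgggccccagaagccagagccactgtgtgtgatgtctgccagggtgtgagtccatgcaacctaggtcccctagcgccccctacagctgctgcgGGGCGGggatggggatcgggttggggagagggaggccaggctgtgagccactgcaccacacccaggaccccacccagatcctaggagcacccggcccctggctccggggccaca
Icam1: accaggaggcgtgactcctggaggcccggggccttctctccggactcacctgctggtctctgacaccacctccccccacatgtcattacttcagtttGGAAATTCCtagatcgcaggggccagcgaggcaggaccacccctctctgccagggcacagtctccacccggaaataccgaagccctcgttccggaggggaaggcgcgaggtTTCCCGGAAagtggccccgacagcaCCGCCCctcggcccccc
The Icam1 stretch held all 3 motifs, with the NF-kB form 153 to 145 bases and the STAT site 42 to 34 bases before the start. Among 32851 promoter stretches of that length, 3.59% held the NF-kB form, 7.02% the STAT site and 32.7% the GC box. No matches overlapped in these stretches. Itgb1 and Itga4 each held 1 GC box and 0 matches of the other motifs. In the Sdc1 stretch, at chr12:8771146-8771395, there were 3 GC boxes, and in those of Itgb7 and Cd44 there were 0 matches of any of these motifs. The Itgb7 stretch precedes base 102231935 on the minus strand, while the gene record begins at 102233405, so that stretch lies within the gene record. A match describes letters in this window and says nothing of whether a factor was bound.

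Sdc1 stood at 8.43 and 8.55 alone, 8.61 and 8.38 beside B cells, and 8.53 and 8.67 with neutrophils, and every pair of groups overlapped. The difference for neutrophils was 0.11 ± 0.11 against B cells (95% interval -0.15 to 0.37, limma adjusted p = 0.550) and 0.11 ± 0.11 against culture alone (adjusted p = 0.597). A dimmer Sdc1 probe set lay between 6.54 and 6.75 on the 6 arrays, and its first neutrophil array was the lowest. With both probe sets averaged the Sdc1 difference was 0.02 against either group, so the main value rests on the brighter of them.

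Cd44 stood at 9.26 and 9.21 alone, 9.32 and 9.26 beside B cells, and 9.39 and 9.38 with neutrophils. The neutrophil arrays were the highest, by a small step: 0.10 ± 0.09 against B cells (limma adjusted p = 0.510) and 0.15 ± 0.09 against culture alone (adjusted p = 0.403). Ccr7 stood at 11.16 and 11.23 alone, 11.23 and 11.14 beside B cells, and 11.27 and 11.34 with neutrophils, with both neutrophil arrays again above the rest. Its difference was 0.12 ± 0.09 against B cells (95% interval -0.09 to 0.33, limma adjusted p = 0.428) and 0.11 ± 0.09 against culture alone (adjusted p = 0.520).

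**Figure D2:**
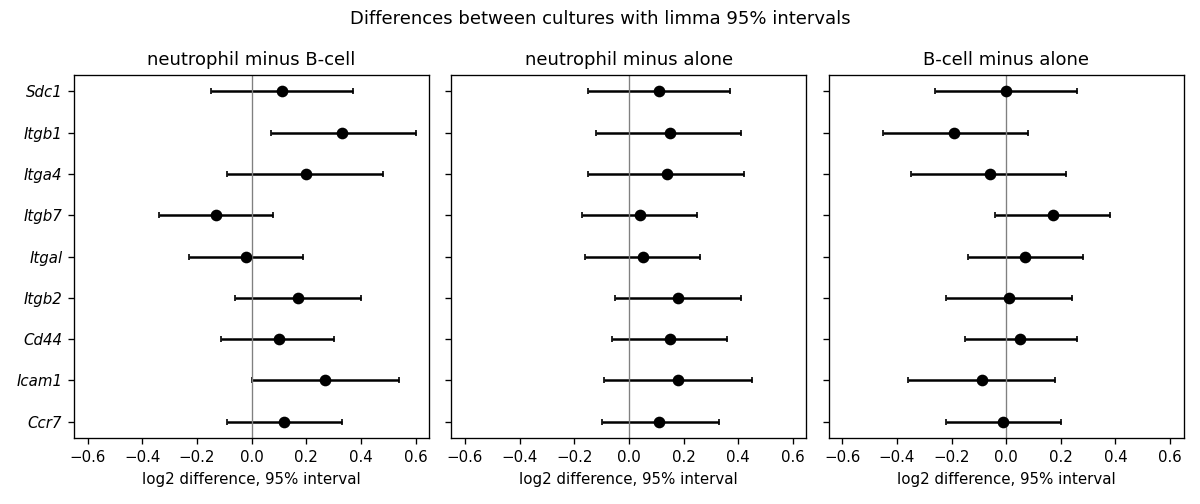
Log2 difference of each gene in the 3 comparisons (points, with 95% intervals from limma as bars). Every interval includes 0 but those of Itgb1, from 0.07 to 0.60, and Icam1, from 0.00 to 0.54, for neutrophils against B cells, and these 2 did not pass after adjustment.

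Read against the other genes, most of the 9 lay where brighter genes lay. For neutrophils against B cells 7 of 9 differences were positive with a median of 0.12, beside 51.7% of all genes and 80.1% of brighter genes positive. Of the 7 brighter members 7 were positive, with a median of 0.17, beside 0.13 for all brighter genes. The median of all 9, 2 of them dim, was 0.06 with quantile normalisation. With arrays centred on their medians it was 0.21, with 8 of 9 positive. That of brighter genes moved from 0.13 to 0.06 and 0.22. Arrays did not overlap and were higher with neutrophils for 5 of 9 genes, beside 30.0% of all genes and 52.1% of brighter genes, and lower for 1 of 9, Itgb7, beside 26.7% of all genes. Against culture alone 9 of 9 were positive with a median of 0.14, beside 54.4% of all genes and 79.7% of brighter genes, and the median was 0.08 with quantile normalisation and 0.20 with centring. The 7 brighter members had a median of 0.15 there, beside 0.11 for all brighter genes. Arrays did not overlap and were higher with neutrophils for 7 of 9 genes, beside 35.6% of all genes and 60.1% of brighter genes, and lower for 0 of 9, beside 27.4% of all genes. These comparisons share the neutrophil arrays. For B cells against alone 5 of 9 were positive, beside 49.5% of all genes and 44.0% of brighter genes. There 3 of 9, Itgb7, Itgal and Cd44, were higher without overlap, beside 13.5% of all genes and 10.7% of brighter genes, and 1 of 9, Itgb1, was lower without overlap, beside 13.5%.

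**Figure D3:**
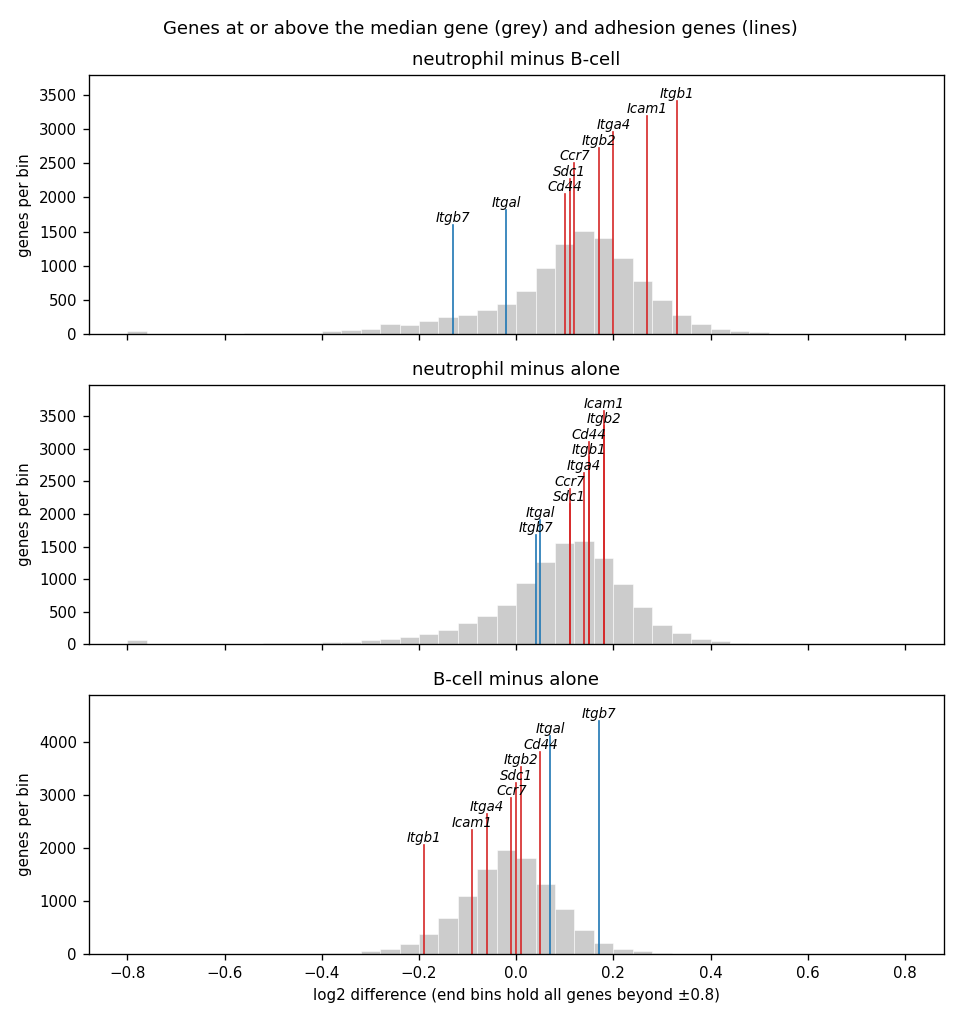
Distribution of log2 differences over the 11090 genes at or above the median gene (grey, bins of 0.04) with the 9 genes as lines (red for brighter genes, blue for Itgb7 and Itgal, with line heights set only to part the names). For neutrophils against B cells the bulk of the genes lies right of 0, at a median of 0.13, and Itgb1 is farthest right of the 9.

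The B-cell arrays set much of the spread. The first exceeded the second for 8 of 9 genes, by a median of 0.19 over the 9, beside 0.13 over brighter genes and 0.01 over all genes. The second B-cell array was the lowest of the 6 arrays for 6 of 9 genes, beside 31.7% of all genes and 56.6% of brighter genes. A neutrophil array was the highest for 7 of 9 genes, beside 43.5% of all genes and 69.5% of brighter genes. Without the first B-cell array 3 of 9 genes passed in limma, all higher with neutrophils: Itgb1 at 0.48 (adjusted p = 0.0248), Icam1 at 0.42 (adjusted p = 0.0296) and Itga4 at 0.36 (adjusted p = 0.0447). Without that array 24.6% of all genes passed, 11.7% of all genes passed as higher, and 22.0% of brighter genes passed as higher. In that fit the remaining B-cell array stands alone and is assumed to vary like the other groups. Without the second B-cell array, which also leaves 1 array in that group, Itgb1 stood at 0.19, Icam1 at 0.12 and Itga4 at 0.03. The median was then 0.06 over the 9 genes and 0.06 over brighter genes, beside 0.12 and 0.13 with all 6 arrays.

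**Figure D4:**
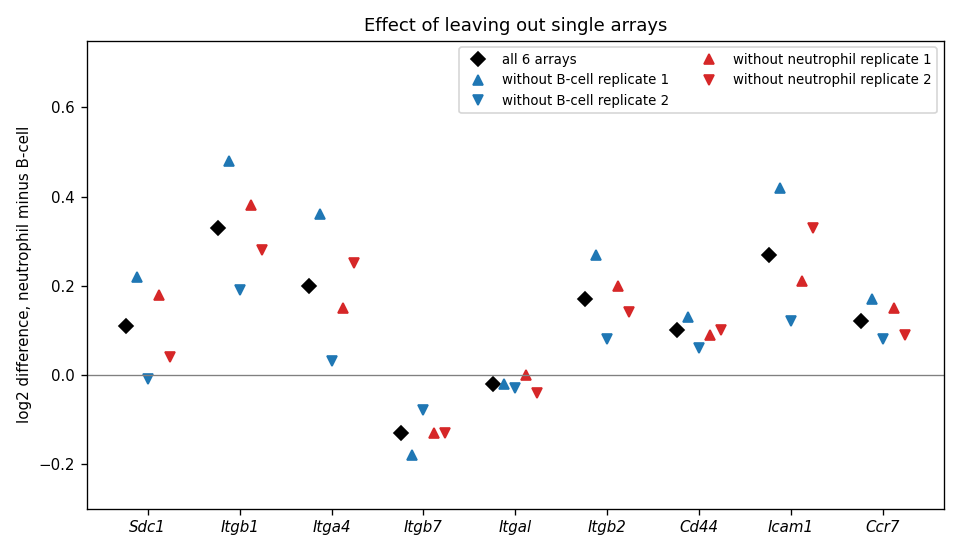
Log2 difference of each gene for neutrophils against B cells with all 6 arrays (black) and without each co-culture array in turn. For Itgb1 the value runs from 0.19 without B-cell replicate 2 to 0.48 without B-cell replicate 1, and the neutrophil arrays move it less, to 0.38 and 0.28.

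Averaged per array, 1394 genes of olfactory or vomeronasal receptors stood at 5.56 and 5.51 alone, 5.27 and 5.59 beside B cells, and 5.13 and 5.05 with neutrophils, so it moved with the groups and split the B-cell arrays. With it as a covariate 0 of 9 genes passed in any comparison, and 0 of all 22180 genes passed. The covariate moved with the groups, so these counts say nothing particular to the 9. The difference for neutrophils against B cells became 0.03 for Itgb1, 0.0042 for Icam1 and -0.18 for Sdc1. Neutrophil markers moved with the neutrophil co-culture as well. All 17 listed were measured, with array means of 6.82 and 6.89 alone, 6.85 and 6.94 beside B cells, and 7.26 and 7.31 with neutrophils, and 12 of 17 lay below the median gene. Of these 1 rose for neutrophils against B cells, Ngp, and 5 rose against culture alone, Ngp, Retnlg, Lcn2, S100a8 and Elane. Neutrophils also carry Itgb2, Itgal, Cd44 and Icam1, and the part of such transcripts in the values above was not tested. In such samples of pooled cells, fewer cells of a type and less RNA per cell cannot be told apart.

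Of the other marker lists only the monocyte list held a gene that passed. Mature B cell markers, 9 of 10 measured, averaged 9.61 and 9.56 alone, 9.55 and 9.62 beside B cells, and 9.53 and 9.53 with neutrophils, and 0 of 9 passed. Plasma cell markers, 7 of 8 measured, averaged 8.41 and 8.44, 8.48 and 8.40, and 8.49 and 8.45, and 0 of 7 passed. Of the plasma cell markers Irf4, Xbp1, Slamf7 and Tnfrsf13b were brighter genes and Prdm1, with a mean of 6.84, lay below the median gene. Jchain and Tnfrsf17, with means of 5.38 and 5.99, lay below the lower quartile of genes. Of the mature B markers Cd79a, Cd79b, Cd22, Pax5, Blk and Cd37 were brighter genes, and Cr2, Ms4a1 and Fcer2a lay below the median gene. Monocyte markers, 7 of 8 measured, averaged 6.86 and 6.76, 6.72 and 6.88, and 7.04 and 7.03, and 1 of 7, Ly6c2, rose with neutrophils in both comparisons. T and NK cell markers, 8 of 8 measured, averaged 6.93 and 7.02, 7.05 and 7.07, and 6.98 and 6.99, and 0 of 8 passed.

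In the wider adhesion and homing pathway no gene passed. Lists of 165 other genes held 153 measured ones, 87 of them brighter, and 0 of 153 passed in limma in any of the 3 comparisons. Their median difference was 0.05 between the co-cultures, 0.06 between neutrophil co-culture and cells by themselves and -0.01 between B-cell co-culture and those cells, and among the 87 brighter ones 0.12, 0.09 and -0.02. Those medians lie near the 0.13, 0.11 and -0.01 of all brighter genes.

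The list of other syndecans, a glypican and the enzymes that build, edit or cut heparan sulfate had the largest median of these lists for neutrophils against B cells among its brighter genes, 0.22 over 15 genes. The selectin list was close to it, at 0.21 over 5 brighter genes. Of the 21 measured genes of the heparan sulfate list 6 were higher and 1 lower at an unadjusted p under 0.05. Beside these, 8.10% of all genes and 14.4% of brighter genes were higher, and 2652 of all 22180 genes were lower. In the selectin list 3 of 11 measured genes were higher and 0 lower. Against culture alone 2 of the 21 heparan sulfate genes were higher and 0 lower at that level. There 1324 of all 22180 genes were higher and 2599 lower, and 1064 of the 11090 brighter genes were higher. Hs2st1, which adds sulfate to the 2-O position of heparan sulfate, stood 0.37 ± 0.12 above B cells (limma adjusted p = 0.182) and 0.36 ± 0.12 above culture alone (adjusted p = 0.183). Its arrays were 8.45 and 8.51 alone, 8.61 and 8.32 beside B cells, and 8.77 and 8.90 with neutrophils. The epimerase Glce stood 0.34 ± 0.15 above B cells (adjusted p = 0.252), with arrays of 8.97 and 8.46 beside B cells and 9.01 and 9.10 with neutrophils, and without the second B-cell array the difference was 0.09. Without it the difference was also smaller by over 1.5 times for Hs2st1, at 0.23, and for Sdc4, described next, at 0.17. Extl3, a starter of heparan sulfate chains, stood 0.32 ± 0.10 above culture alone (adjusted p = 0.153). Sdc4, another syndecan, stood at 11.01 and 10.95 alone, 10.91 and 10.63 beside B cells, and 11.07 and 11.08 with neutrophils, an order like that of Itgb1. Its difference was 0.31 ± 0.11 against B cells (adjusted p = 0.209) and 0.09 ± 0.11 against culture alone (adjusted p = 0.658).

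Of 20 other integrin subunits 7 were brighter genes. Itga9 stood 0.19 ± 0.10 and Itgav 0.17 ± 0.11 above B cells (limma adjusted p = 0.291 and 0.357), and Itgb3 0.25 ± 0.09 above culture alone (adjusted p = 0.226). Without the second B-cell array Itgav stood 0.05 above B cells. Itgae, the partner of Itgb7 on epithelial lymphocytes, was dim, at 6.28 and 6.34 alone, 6.43 and 6.44 beside B cells, and 6.45 and 6.51 with neutrophils. Among 27 cytoplasmic activators, adaptors and other regulators of integrins 19 were brighter, and all 19 stood higher with neutrophils than with B cells. The median of these 19 was 0.15, beside 80.1% of all brighter genes higher and a median of 0.13, and 0 of 27 passed. Talin, Tln1, stood 0.22 ± 0.10 above B cells (adjusted p = 0.257), the focal adhesion kinase relative Ptk2b 0.25 ± 0.10 (adjusted p = 0.233) and Itgb1bp1, which binds the Itgb1 tail, 0.24 ± 0.13 (adjusted p = 0.299), or 0.10 without the second B-cell array. Cyth1, a regulator of LFA-1, stood 0.20 ± 0.10 above culture alone (adjusted p = 0.347). Against culture alone 18 of the 19 brighter genes stood higher with neutrophils, and kindlin-3, Fermt3, did not. It stood at 10.16 and 10.09 alone, 9.95 and 9.83 beside B cells, and 9.92 and 10.02 with neutrophils. Its difference for neutrophils was -0.16 ± 0.10 against alone (limma adjusted p = 0.407) and 0.08 ± 0.10 against B cells (adjusted p = 0.616). For B cells against alone it was -0.24 ± 0.10 (adjusted p = 1), where 4 of the 19 were positive.

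Ligands of integrins were mostly dim, with 3 of 12 measured genes brighter. Icam2, a second ligand of LFA-1, stood 0.25 ± 0.11 above B cells (limma adjusted p = 0.251), and Madcam1, the ligand of the Itgb7 receptor, 0.06 ± 0.11 (adjusted p = 0.709). Vcam1, the ligand of VLA-4, lay at 5.45 and 5.50 alone, 5.18 and 5.69 beside B cells, and 5.34 and 5.28 with neutrophils, below the lower quartile. In the hyaluronan list Rdx, which links CD44 to actin, stood 0.24 ± 0.09 above B cells (adjusted p = 0.230). Hmmr, a hyaluronan receptor that also serves the mitotic spindle, stood 0.32 ± 0.11 above culture alone (adjusted p = 0.190). For neutrophils the hyaluronan synthase Has1 stood at -0.27 ± 0.13 against B cells and -0.29 ± 0.13 against culture alone (limma adjusted p = 0.270 and 0.288).

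Among homing receptors other than Ccr7 the brighter genes, 10 of 25 measured, had a median of 0.01 for neutrophils against B cells and 0.02 against culture alone. Cxcr4, which holds plasma cells in marrow through CXCL12, stood at 11.72 and 11.72 alone, 11.78 and 11.59 beside B cells, and 11.73 and 11.74 with neutrophils, a difference of 0.01 ± 0.10 for neutrophils against alone (limma adjusted p = 0.950). S1pr1, which guides lymphocytes out of tissue, stood at 7.93 and 7.86, 7.98 and 7.85, and 7.88 and 7.91 in the same order. The largest differences among the brighter genes were in Cx3cr1, at -0.31 ± 0.16 against B cells and -0.37 ± 0.16 against alone (adjusted p = 0.286 and 0.268), S1pr4, at 0.18 ± 0.12 against B cells (adjusted p = 0.390), and Cxcr2, at 0.22 ± 0.10 against alone (adjusted p = 0.288). Cx3cr1 overlapped between the co-cultures, at 8.42 and 8.91 beside B cells and 8.44 and 8.28 with neutrophils, and its difference was -0.56 without the first B-cell array and -0.07 without the second. S1pr4 overlapped too, and its difference was 0.08 without the second B-cell array. Klf2, a transcription factor that drives homing genes of lymphocytes, stood 0.31 ± 0.10 above culture alone with neutrophils (adjusted p = 0.175) and Foxo1, another such factor, 0.23 ± 0.10 above B cells (adjusted p = 0.240).

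Of the selectin list, 11 measured genes, Selplg, the ligand of P-selectin, stood at 11.15 and 11.10 alone, 11.04 and 11.04 beside B cells, and 11.15 and 11.21 with neutrophils. Glg1, a ligand of E-selectin, stood 0.29 ± 0.12 above B cells (limma adjusted p = 0.243) and Podxl, a sialomucin, 0.25 ± 0.10 (adjusted p = 0.224). Among 17 other surface adhesion molecules Pecam1 stood 0.27 ± 0.12 and the tetraspanin Cd82 0.20 ± 0.10 above B cells (adjusted p = 0.257 and 0.280), and Cd47, the signal that restrains phagocytes, 0.24 ± 0.09 above culture alone (adjusted p = 0.225). Without the second B-cell array Glg1 and Pecam1 each stood 0.12 above B cells. Over all 33 other named genes, 13 differences between the co-cultures were smaller by over 1.5 times or of the other sign without that array.

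**Figure D5:**
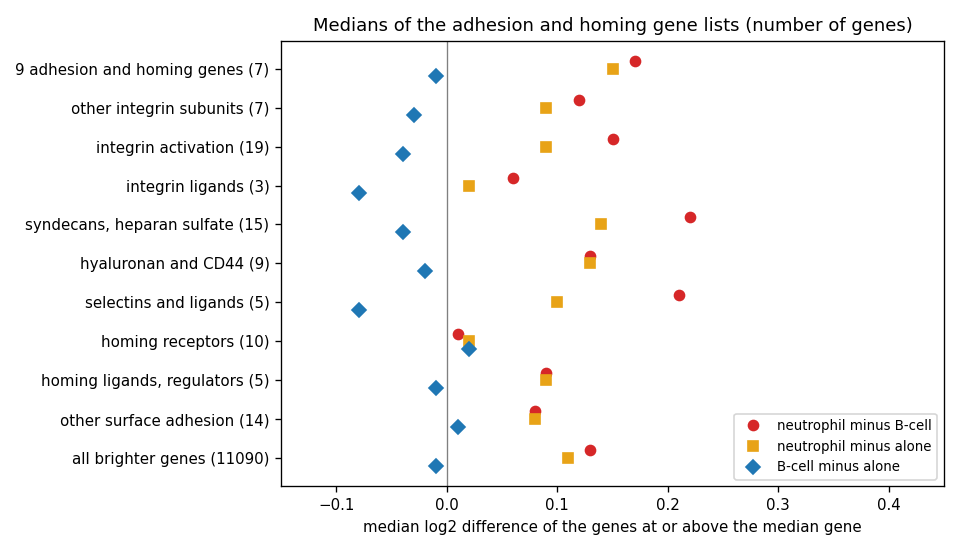
Median log2 difference of the genes at or above the median gene in each list, with their number in brackets, for the 3 comparisons. The medians for neutrophils against B cells run from 0.01 for homing receptors to 0.22 for syndecans and heparan sulfate, beside 0.13 for all 11090 brighter genes.

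The pattern over the 6 arrays most like that of each gene was looked for among the brighter genes of these lists, 93 or 94 candidates a gene, as a description of arrays that share their background. It was Ccr7 with the heparan sulfate sulfotransferase Hs6st1 (r = 0.989), Itgb2 with Hs2st1 (r = 0.988), Itgb1 with the sialyltransferase St3gal4 (r = 0.985) and Cd44 with Cd47 (r = 0.984). Itga4 and Icam1 were both most like Pecam1 (r = 0.980 and 0.973), Sdc1 was most like the heparan sulfate polymerase Ext2 (r = 0.977) and Itgb7 most like the glypican Gpc1 (r = 0.959). Itgal had no close match, with Msn, a linker of CD44 to actin, at r = 0.765. Among all 11090 brighter genes the number closer than the named one ran from 11 for Itgb7 to 237 for Icam1.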

How the data were processed

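The authors summarised each probe set with RMA, per the submitters' processing notes, and deposited log2 signals; RMA subtracts background and normalises between arrays. The log2 scale was read from the values, which ran from 3.04 to 14.03. Normalisation between arrays hides a change shared by most genes, and the number of arrays limits the precision. Of 41345 probe sets, 23521 had 1 gene, 1814 several and 16010 none in the platform annotation; the brightest per gene over 6 arrays was kept, which gave 22180 genes. Limma 3.58.1 in R 4.3.3 fitted 3 group means on all 6 arrays (3 residual degrees of freedom, prior 5.55), with eBayes, two-sided, and Benjamini-Hochberg adjustment over all genes. On simulated data for neutrophils against alone (20 simulations of 22180 genes, 200 changed) recovery was 74.0% for 1.5-fold changes and 99.9% for 2-fold ones, and 4.59% of calls were false. The simulated noise was independent for every gene and array and had the same spread for all genes. Shifts shared by many genes of an array were not simulated, so these rates describe that setting and not these arrays.

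The members, lists and tests were chosen with earlier results of these data known. Genes named beside the 9 are the 2 brighter genes of each list with the largest difference in each neutrophil comparison, and 10 fixed ones. Marker lists were of neutrophils, mature B, plasma, monocyte and T or NK cells. Alternatives are in the closing section; the values of the other named genes without a B-cell array were chosen after seeing the data. Plots used matplotlib 3.10.9 in Python 3.11.15.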

Additional observations from a re-analysis of the deposited data

How the results depend on the processing

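Changes under 1.5-fold, and the comparisons with the B-cell arrays, were not simulated. The 9 genes gave 0 calls in each comparison under every alternative run, apart from 3 for neutrophils against B cells without B-cell replicate 1 (range 0 to 3 over single arrays left out). Filters, the eBayes settings, the block and arrays of the group not compared leave a difference as it is by construction, so only the other alternatives bear on its direction. Over all of them 3 differences passed and 27 changed sign, all 27 short of the threshold. With quantile normalisation the differences for neutrophils against B cells were 0.22 for Itgb1, 0.17 for Icam1, 0.12 for Itgb2, 0.11 for Itga4, 0.04 for Sdc1 and Ccr7 and -0.04 for Itgb7, and against culture alone Itgb1 was 0.06, Itga4 and Sdc1 0.07, Cd44 0.08, Icam1 0.11 and Ccr7 0.06. With only brighter genes Itgb7 and Itgal gave no value.

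For neutrophils against B cells sign changes were -0.18 for Sdc1, -0.09 for Itga4 and -0.04 for Itgb2 with the receptor mean as a covariate, 0.06 for Itgal and -0.02 for Cd44 with quantile normalisation, and 0.07 for Itgal with arrays centred on their medians, which moved the median of all genes from 0.01 to 0.10. Without single arrays Sdc1 ran from -0.01 to 0.22 and Itgal from -0.04 to 0.0004. For neutrophils against alone the receptor mean gave -0.26 for Sdc1, -0.25 for Itgb1, -0.24 for Itga4, -0.17 for Icam1, -0.09 for Itgb2 and -0.04 for Ccr7. For B cells against alone it gave -0.09 for Sdc1 and -0.06 for Itgb2, centring gave -0.02 and -0.01 for these, and quantile normalisation 0.01 for Ccr7. Without single arrays Sdc1 ran from -0.11 to 0.12, Itga4 from -0.23 to 0.10, Itgb2 from -0.08 to 0.11, Icam1 from -0.24 to 0.06 and Ccr7 from -0.05 to 0.04. The cause was not tested.

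Over all genes, the 11 calls for neutrophils against B cells became 91 among brighter genes, 33 with trend and robust settings, 7 with quantile normalisation, 135 with centring (45 higher and 90 lower), 1 with only the 4 arrays, 0 with the receptor mean (777 at an unadjusted p under 0.05) and 1 to 5453 without single arrays. The 331 for neutrophils against alone became 90 among brighter genes, 70 with quantile normalisation, 581 with centring, 1338 with only the 4 arrays, 0 with the receptor mean (1254 at an unadjusted p under 0.05) and 5 to 1338 without single arrays. The 0 for B cells against alone became 1 among brighter genes, 1 with trend and robust settings and 3 with centring.

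The labels do not say that replicate numbers pair the arrays, and the deviations of same-numbered arrays correlated at -0.15, 0.07 and -0.07 in the 3 comparisons. With the replicate number as a block the calls were 9, 373 and 0, and 0 of the 9 genes passed. Crossed pairing for neutrophils against B cells, chosen after seeing the data, gave 1437 calls and 0 of the 9 genes.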
